A study of Mus musculus with 9 samples.

Results

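The IGF1 axis was followed through 10 genes, listed by name but with earlier results of these data known. They are the ligand gene Igf1, the receptor gene Igf1r, the substrate genes Irs1 and Irs2, and the 6 binding protein genes Igfbp2 to Igfbp7. They are 10 of the 52780 genes in the deposited counts. All 10 had counts in every sample and passed the filter on low counts that left 19545 genes for testing. The cells were C2C12, immortal myoblasts of the mouse whose cells fuse to myotubes in the dish, and mRNA selected by its polyA tail was sequenced on day 4 of differentiation. The 9 samples form 3 conditions of 3 replicates, the control si Ctrl and the knockdowns si mH2A1.1 and si mH2A1.2. Cells of each knockdown received siRNA at 10 nM against a single splice isoform of the histone variant macroH2A1, given again before and during differentiation. The controls carry the label wild type and are called si Ctrl after the study's figure. The study lists a scramble siRNA as control and used 10 nM for all siRNAs. That the 3 control samples received it is taken from the name si Ctrl. All samples come from the same line, and the study describes the replicates as independent biological ones, so p-values measure the spread between such replicates of that line.

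IGF1 is a secreted growth factor that binds the receptor tyrosine kinase IGF1R, which recruits and phosphorylates the adaptor proteins IRS1 and IRS2. These pass the signal on to PI3K and AKT, and the receptor also signals through RAS and MAPK. Outside the cell, IGF-binding proteins hold the ligand and limit or prolong its access to the receptor, and proteases that cut them set it free. In skeletal muscle the axis is known for promoting growth, and in cultured myoblasts it acts on both proliferation and differentiation.

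Levels are given as CPM, counts scaled to library size, and as RPKM, CPM per kilobase of annotated exon, where genes are compared with each other. A gene was called when its log2 fold change was 0.8 or more in either direction and its adjusted p from edgeR's quasi-likelihood test was below 0.01. With 3 samples against 3, a two-sided exact permutation test cannot go below p = 0.1, so single genes were judged by the edgeR model across all genes. Samples held 36924252 to 42223108 counts, and 3 counts, the smallest amount taken as detectable, corresponded to 0.0691 to 0.0826 CPM. These floors cover counting error only. The lowest count of any of the 10 genes was 131, for Igf1 in si mH2A1.1 replicate 1. The targeted gene H2afy, in which both isoforms are summed, was at 56.3 to 62.4 CPM in si Ctrl, 30.0 to 38.8 CPM in si mH2A1.1 and 43.2 to 47.2 CPM in si mH2A1.2. Myotube markers (9 genes such as Myog, Ckm and Ttn) summed to 15838 to 27366 CPM across the samples, and the leukocyte and endothelial, adipocyte and osteoblast lists each summed to 12.3 CPM or less in every sample. Such bulk values cannot tell fewer cells of a type from less RNA per cell.

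The promoters of 3 binding protein genes are shown because these genes were called between the knockdowns in both directions, Igfbp4 and Igfbp7 lower and Igfbp5 higher in si mH2A1.1 than in si mH2A1.2. Each is the 250 bases before the RefSeq start (GRCm38.p6), written 5′ to 3′ on the gene's strand, with capitals for each match of CANNTG, the E-box that myogenic bHLH factors can bind. Igfbp4 lies at chr11:99040994-99041243 on the plus strand, Igfbp5 at chr1:72874866-72875115 on the minus strand and Igfbp7 at chr5:77408046-77408295 on the minus strand.
Igfbp4: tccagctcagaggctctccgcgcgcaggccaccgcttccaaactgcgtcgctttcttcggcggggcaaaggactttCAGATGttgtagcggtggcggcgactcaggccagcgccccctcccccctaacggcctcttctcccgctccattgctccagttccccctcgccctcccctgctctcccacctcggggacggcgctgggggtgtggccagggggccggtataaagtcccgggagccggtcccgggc
Igfbp5: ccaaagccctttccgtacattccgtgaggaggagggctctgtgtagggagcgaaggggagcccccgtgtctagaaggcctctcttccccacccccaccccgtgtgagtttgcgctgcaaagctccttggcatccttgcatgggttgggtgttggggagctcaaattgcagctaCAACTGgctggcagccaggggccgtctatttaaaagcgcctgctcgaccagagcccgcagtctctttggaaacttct
Igfbp7: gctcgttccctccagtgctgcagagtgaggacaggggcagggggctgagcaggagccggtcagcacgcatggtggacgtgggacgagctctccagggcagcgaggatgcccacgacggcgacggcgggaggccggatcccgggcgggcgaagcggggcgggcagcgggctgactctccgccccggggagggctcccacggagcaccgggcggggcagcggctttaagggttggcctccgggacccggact
The 3 sequences differ in composition, with a GC content of 69.2% for Igfbp4, 58.8% for Igfbp5 and 74.0% for Igfbp7. Igfbp4 has a TATAAA 28 bases before the start. Igfbp7 has no CANNTG and 4 matches of GGGCGG, the core of the GC box, of which Igfbp4 and Igfbp5 have none. All 10 genes had a RefSeq window and Igfbp2 had 2, which gave 11 windows, searched on both strands. CANNTG was found in 9 of the 11 and in 66.2% of all 32817 windows of this length. The form CAGCTG, which CANNTG also matches, was found in 13.0% of all windows and, among the 10 genes, only before Igf1, at 157 bases. TATAAA was present in 12.4% and GGGCGG in 32.7% of all windows. The window of Igf1 lies inside the 5′ untranslated exon of longer GENCODE transcripts and is not shown. A match is a string of letters and not a measured binding site.

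By level per exon length, Igfbp5, Igfbp6, Igfbp7 and Igfbp2 stood above the ligand and its receptor in control myotubes, while Igfbp4 and Igfbp3 were near them. Igfbp5, whose product is the binding protein best known from differentiating myoblasts, was at 564 ± 134 RPKM (SD, n = 3) and ranked 48 of 14329 tested protein-coding genes. Igfbp6 at 64.8 ± 13.3 RPKM and Igfbp7 at 58.7 ± 9.39 RPKM followed, and their ranges overlapped. The other genes were lower, in the order Igfbp2 (28.5 ± 9.41 RPKM), Irs1 (10.2 ± 0.432), Igfbp4 (5.41 ± 1.29), Igf1r (5.00 ± 0.588), Irs2 (2.63 ± 0.923), Igf1 (2.21 ± 0.696) and Igfbp3 (2.01 ± 0.488). In this order Igfbp4 overlapped Igf1r, Irs2 overlapped Igf1, and Igf1 overlapped Igfbp3. In si mH2A1.1, Igf1 was last at 0.550 ± 0.197 RPKM, below Irs2 without overlap. In si mH2A1.2, Igfbp7 was second at 118 ± 14.2 RPKM, above every Igfbp6 sample.

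The ligand gene was lowest in si mH2A1.1 and highest in si mH2A1.2. Against si Ctrl, edgeR called only the fall in si mH2A1.1, while DESeq2, which the study used, called both changes. Igf1 (ENSMUSG00000020053, plus strand, GRCm38 chr10:87858265-87937042) was at 14.4, 28.0 and 23.3 CPM in the si Ctrl samples, at 3.24, 6.20 and 6.91 CPM in si mH2A1.1, and at 42.8, 44.3 and 55.9 CPM in si mH2A1.2. All 3 groups were separate, with every si mH2A1.1 sample lowest and every si mH2A1.2 sample highest. Against si Ctrl, Igf1 was 4.01-fold lower in si mH2A1.1 (log2 fold change -2.00, standard error (SE) 0.30, adjusted p = 0.00471 from edgeR). In si mH2A1.2 the change was not called by edgeR (log2 fold change 1.12, SE 0.28, adjusted p = 0.0716), but was by DESeq2 (1.12, adjusted p = 0.00312). An alternative edgeR fit, the replicate block, took replicate numbers as blocks, which pairs samples of all 3 conditions by number. Against si Ctrl it gave 1.17 in si mH2A1.2 (SE 0.18, adjusted p = 0.0120), not called. In si mH2A1.1 it gave -2.02 (SE 0.19, adjusted p = 0.000963), which was called. Between the knockdowns Igf1 was 8.73-fold lower in si mH2A1.1 (log2 fold change -3.13, SE 0.31, adjusted p = 0.000287). Both knockdowns are set against the same 3 si Ctrl samples. The call against si Ctrl was lost without si Ctrl replicate 2 (-1.79, adjusted p = 0.0223), si Ctrl replicate 3 (-1.97, 0.0217), si mH2A1.1 replicate 1 (-1.73, 0.0138), si mH2A1.1 replicate 3 (-2.21, 0.0150) or si mH2A1.2 replicate 2 (-2.01, 0.0101). The call between the knockdowns held without any single sample, at log2 fold changes from -3.34 to -2.86.

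**Figure D1:**
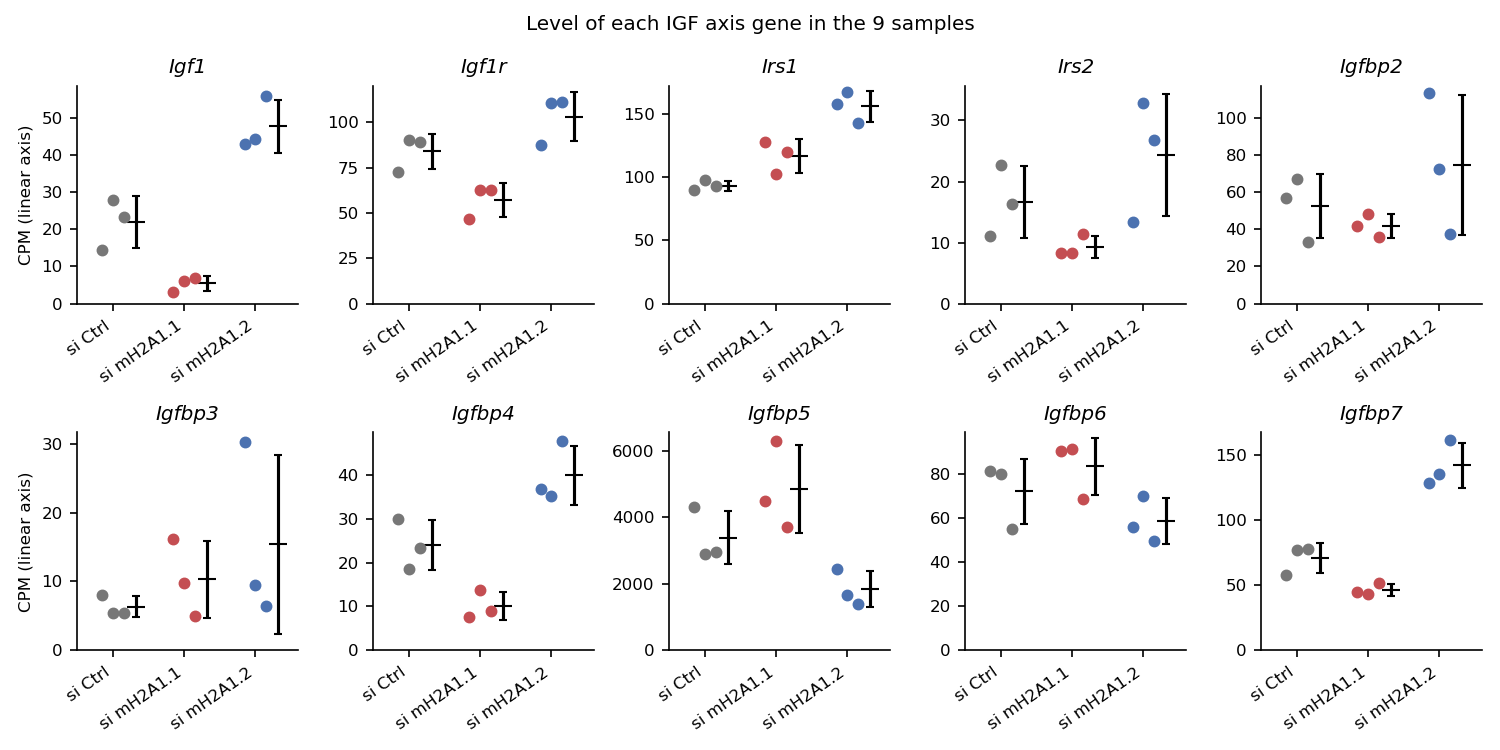
Level of each of the 10 genes in the 9 samples, in CPM on linear axes that start at 0, with a point per sample and the mean ± SD (n = 3) beside each group. Igf1 is lowest in all 3 si mH2A1.1 samples (3.24 to 6.91 CPM) and highest in all 3 si mH2A1.2 samples (42.8 to 55.9 CPM), while Igfbp5 runs the other way between the knockdowns.

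The receptor gene was also lowest in si mH2A1.1, by a smaller difference. Igf1r (ENSMUSG00000005533, plus strand, chr7:67952827-68233668) was at 72.6, 90.3 and 89.1 CPM in si Ctrl, 46.5, 62.4 and 62.9 CPM in si mH2A1.1, and 87.4, 111 and 111 CPM in si mH2A1.2. The si mH2A1.1 samples lay below both other groups, which overlapped each other. Igf1r was called between the knockdowns, 1.80-fold lower in si mH2A1.1 (log2 fold change -0.85, SE 0.15, adjusted p = 0.00381 from edgeR). Against si Ctrl its log2 fold change was -0.55 in si mH2A1.1 (SE 0.15, adjusted p = 0.0399) and 0.29 in si mH2A1.2 (SE 0.15, adjusted p = 0.368), neither of which was called. The call between the knockdowns was lost when si mH2A1.1 replicate 1 (-0.72, adjusted p = 0.0117), si mH2A1.1 replicate 3 (-0.92, 0.0114), si mH2A1.2 replicate 2 (-0.79, 0.0191) or si mH2A1.2 replicate 3 (-0.79, 0.0155) was left out.

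Neither substrate gene was called in any contrast by edgeR, and their patterns differed. Irs1 (ENSMUSG00000055980, minus strand, chr1:82233101-82291416) was at 89.6, 97.5 and 93.1 CPM in si Ctrl, 128, 102 and 119.8 CPM in si mH2A1.1, and 158, 167 and 143 CPM in si mH2A1.2. Its 3 groups were separate, in si Ctrl lowest, so Irs1 was the only one of the 10 genes with every sample of both knockdowns above si Ctrl. The log2 fold change of Irs1 was 0.32 in si mH2A1.1 (SE 0.11, adjusted p = 0.0726) and 0.74 in si mH2A1.2 (SE 0.11, adjusted p = 0.0126), and -0.42 between the knockdowns (SE 0.11, adjusted p = 0.0185). Irs2 (ENSMUSG00000038894, minus strand, chr8:10984681-11008458) was at 11.0, 22.7 and 16.2 CPM in si Ctrl, 8.22, 8.25 and 11.4 CPM in si mH2A1.1, and 13.4, 32.8 and 26.8 CPM in si mH2A1.2. The si mH2A1.1 samples lay below all si mH2A1.2 samples, while both knockdowns overlapped si Ctrl. Irs2 differed between the knockdowns by a log2 fold change of -1.39 (SE 0.33, adjusted p = 0.0159), over the p cutoff, and DESeq2 called it there (adjusted p = 0.000291). Where the counting ignored strand, reads could be shared with genes annotated on the opposite strand. Irs1 shares 2822 exon bases with Gm9747, which had 0 counts in all samples, and Irs2 shares 162 with 9530052E02Rik, which had 0 to 3 counts.

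Of the 6 binding protein genes, Igfbp4 and Igfbp7 had the same order of groups as Igf1. Igfbp4 (ENSMUSG00000017493, plus strand, chr11:99041244-99054392) encodes an inhibitory binding protein. It was at 29.9, 18.5 and 23.3 CPM in si Ctrl, 7.56, 13.7 and 8.92 CPM in si mH2A1.1, and 36.9, 35.3 and 47.7 CPM in si mH2A1.2. The si mH2A1.1 samples were lowest and the si mH2A1.2 samples highest, without overlap. Igfbp4 was called between the knockdowns, 3.98-fold lower in si mH2A1.1 (log2 fold change -1.99, SE 0.24, adjusted p = 0.000653 from edgeR). Against si Ctrl the log2 fold change was -1.25 in si mH2A1.1 (SE 0.24, adjusted p = 0.0127) and 0.74 in si mH2A1.2 (SE 0.23, adjusted p = 0.143). Without si mH2A1.1 replicate 2, the highest of its group, the first of these was called (-1.54, adjusted p = 0.00411). With all samples DESeq2 called it (-1.25, adjusted p = 2.2e-05), and the replicate block did not (-1.25, adjusted p = 0.0136).

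Igfbp7 (ENSMUSG00000036256, minus strand, chr5:77349240-77408041), whose product binds IGFs weakly and is found in the extracellular matrix, was at 57.9, 77.1 and 78.0 CPM in si Ctrl, 44.9, 42.9 and 51.3 CPM in si mH2A1.1, and 129, 136 and 162 CPM in si mH2A1.2. The 3 groups were again separate. Between the knockdowns Igfbp7 was called, 3.06-fold lower in si mH2A1.1 (log2 fold change -1.62, SE 0.14, adjusted p = 0.000169 from edgeR). Its log2 fold change was 1.00 in si mH2A1.2 against si Ctrl (SE 0.14, adjusted p = 0.0106), just over the p cutoff, and -0.62 in si mH2A1.1 (SE 0.14, adjusted p = 0.0223). With the replicate block, the change in si mH2A1.2 against si Ctrl was called (log2 fold change 1.00, SE 0.10, adjusted p = 0.00541). The calls of Igfbp4 and Igfbp7 between the knockdowns held without any single sample. Igfbp7 shares 85 exon bases with Polr2b on the opposite strand, which had 2806 to 4390 counts per sample.

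Igfbp5 ran opposite to Igf1. Igfbp5 (ENSMUSG00000026185, minus strand, chr1:72857932-72874884) was at 4314, 2889 and 2963 CPM in si Ctrl, 4488, 6303 and 3721 CPM in si mH2A1.1, and 2435, 1644 and 1398 CPM in si mH2A1.2. Every si mH2A1.2 sample was below every other sample, while si mH2A1.1 and si Ctrl overlapped. Between the knockdowns Igfbp5 was called, 2.65-fold higher in si mH2A1.1 (log2 fold change 1.41, SE 0.27, adjusted p = 0.00567 from edgeR). Against si Ctrl the log2 fold change was -0.89 in si mH2A1.2 (SE 0.26, adjusted p = 0.122) and 0.51 in si mH2A1.1 (SE 0.26, adjusted p = 0.220), neither called by edgeR. DESeq2 called the change in si mH2A1.2 (-0.90, adjusted p = 0.00960), and the replicate block did not (-0.91, adjusted p = 0.0456). The call between the knockdowns was lost without si mH2A1.1 replicate 1 (1.45, adjusted p = 0.0172), si mH2A1.1 replicate 2 (1.17, 0.0123), si mH2A1.2 replicate 2 (1.33, 0.0321) or si mH2A1.2 replicate 3 (1.24, 0.0223).

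Igfbp2, Igfbp3 and Igfbp6 were called in no contrast by edgeR or DESeq2, and each had an unadjusted p below 0.05 in 1 of the 3 contrasts. Igfbp2 (ENSMUSG00000039323, plus strand, chr1:72824503-72852474) and Igfbp5 lie tail to tail, 5457 bases apart with no annotated gene between them. Unlike its neighbour, Igfbp2 overlapped between all groups, at 33.4 to 67.3 CPM in si Ctrl, 35.7 to 48.2 CPM in si mH2A1.1 and 37.7 to 113 CPM in si mH2A1.2, and its log2 fold change between the knockdowns was -0.83 (SE 0.35, adjusted p = 0.115). Igfbp3 (ENSMUSG00000020427, minus strand, chr11:7206086-7213923), the main carrier of IGFs in serum, was at 5.36 to 8.06 CPM in si Ctrl, 4.95 to 16.2 CPM in si mH2A1.1 and 6.45 to 30.3 CPM in si mH2A1.2. In each group replicate 1 was the highest sample, and the log2 fold change between the knockdowns (-0.58, SE 0.55, adjusted p = 0.483) turned to 0.37 without si mH2A1.2 replicate 1 (adjusted p = 0.572). Igfbp6 (ENSMUSG00000023046, plus strand, chr15:102144362-102149511), whose product prefers IGF2, was at 55.0 to 81.1, 68.5 to 91.3 and 49.5 to 70.1 CPM in the same order of groups. Its log2 fold change between the knockdowns was 0.51 (SE 0.18, adjusted p = 0.0684).

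**Figure D2:**
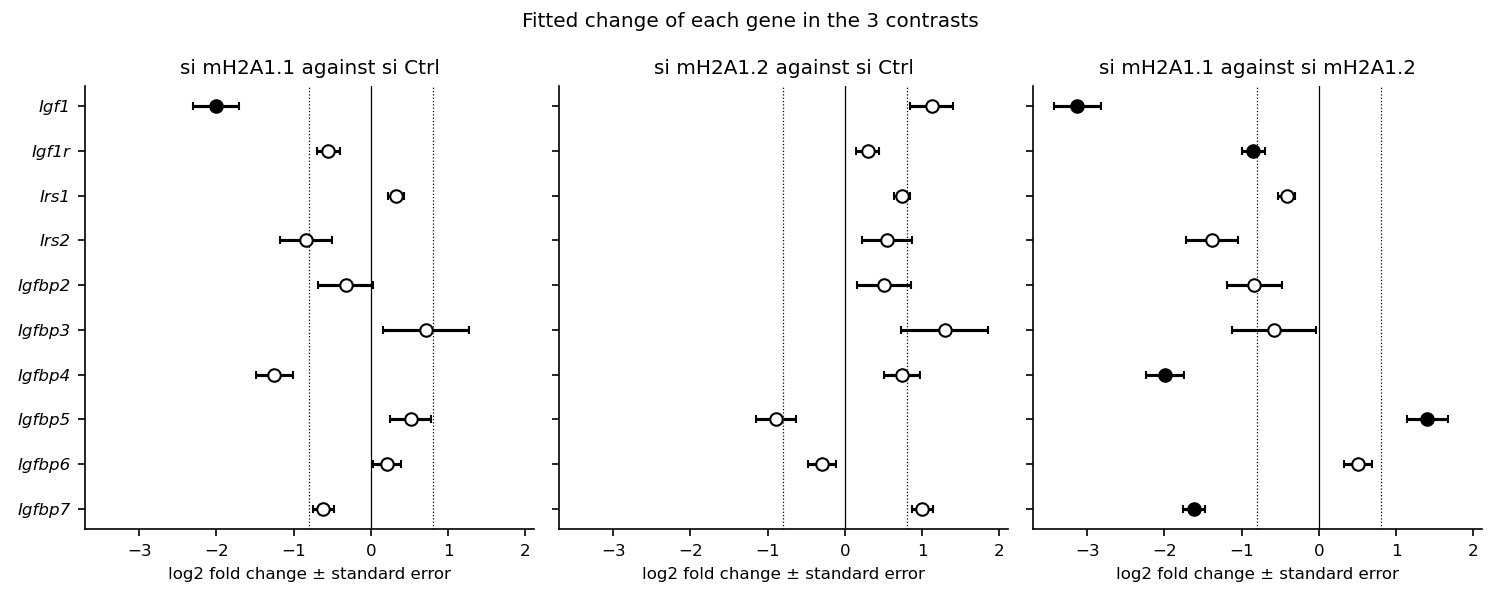
Log2 fold change ± SE of each gene from edgeR in the 3 contrasts, with filled points for called genes and dotted lines at the cutoff of 0.8 in both directions. Igf1 alone is filled for si mH2A1.1 against si Ctrl, none is filled for si mH2A1.2 against si Ctrl, where the fit shown has no replicate block, and Igf1, Igf1r, Igfbp4, Igfbp5 and Igfbp7 are filled between the knockdowns.

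Counted together, the 10 genes were called most often between the knockdowns. In si mH2A1.1 against si Ctrl, 1 of 10 was called, against 1.80% of all tested genes, and 4 had an adjusted p below 0.05, all lower, against 11.1%. The groups did not overlap for 5 of 10 (34.2% of all tested genes), and 6 of 10 had an unadjusted p below 0.05 (29.6%). DESeq2 with the same cutoffs called 2 of 10, Igf1 and Igfbp4, where it called 4.79% of the genes it tested. In si mH2A1.2 against si Ctrl, edgeR called 0 of 10, against 0.179% of all tested genes, and with the replicate block it called 1, Igfbp7, against 0.594%. At an unadjusted p below 0.05 there were 6 of 10 (15.9%), and at an adjusted p below 0.05 there were 2, Igfbp7 and Irs1, both higher (2.35%). Groups were separate for 5 of 10 (22.5%). DESeq2 called 3 of 10, Igf1, Igfbp5 and Igfbp7, where it called 2.24% of the genes it tested.

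Between the knockdowns, 5 of 10 were called, against 6.38% of all tested genes. Of these, 4 were lower in si mH2A1.1 (2.84% of all tested genes were called lower) and 1, Igfbp5, was higher (3.54%). An adjusted p below 0.05 was reached by 7 of 10 (22.5% of all tested genes), 7 of 10 had groups without overlap (39.7%), and 9 of 10 had an unadjusted p below 0.05 (36.2%). The median log2 fold change of the 10 genes was -0.44 in si mH2A1.1 against si Ctrl, 0.64 in si mH2A1.2 against si Ctrl and -0.84 between the knockdowns, while the median of all tested genes was within 0.01 of 0 in each contrast.

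As Igfbp5 held most of the binding protein mRNA, the sum over the 6 genes followed it. The summed level was 879, 659 and 632 RPKM in si Ctrl, 895, 1199 and 747 RPKM in si mH2A1.1, and 642, 499.6 and 444 RPKM in si mH2A1.2. All si mH2A1.1 samples were above all si mH2A1.2 samples, and si Ctrl overlapped with both. The make-up of the sum also differed. Igfbp5 held 77.6% ± 4.38 (SD, n = 3) of the sum in si Ctrl, 84.7% ± 2.48 in si mH2A1.1 and 56.8% ± 5.66 in si mH2A1.2, and its highest share in si mH2A1.2 (63.2%) was below its lowest in si Ctrl (73.0%). Igfbp7 took 8.44% ± 2.61 in si Ctrl, 4.26% ± 1.37 in si mH2A1.1 and 23.1% ± 6.75 in si mH2A1.2, where its lowest share (16.6%) was above its highest in si Ctrl (10.2%). Igfbp4 was a minor part, at 0.747% ± 0.0999, 0.240% ± 0.0426 and 1.78% ± 0.585 in the same order. The summed binding protein RPKM per RPKM of Igf1 was 604.7, 234 and 268 in si Ctrl, 2739.9, 1916 and 1069.9 in si mH2A1.1, and 148, 112 and 78.8 in si mH2A1.2. These ratios did not overlap between any of the 3 groups, and an exact two-sided permutation test of 3 against 3 then gives its smallest p, 0.1. The ratios compare mRNA and not protein, and they leave out Igf2, which encodes another IGF ligand. Mean Igf2 was 55.4 RPKM in si Ctrl, 79.1 RPKM in si mH2A1.1 and 38.9 RPKM in si mH2A1.2. In the same order, mean Igf1 was lower, at 2.21, 0.550 and 4.81 RPKM. The ratios thus do not measure binding protein mRNA against all IGF ligand mRNA.

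**Figure D3:**
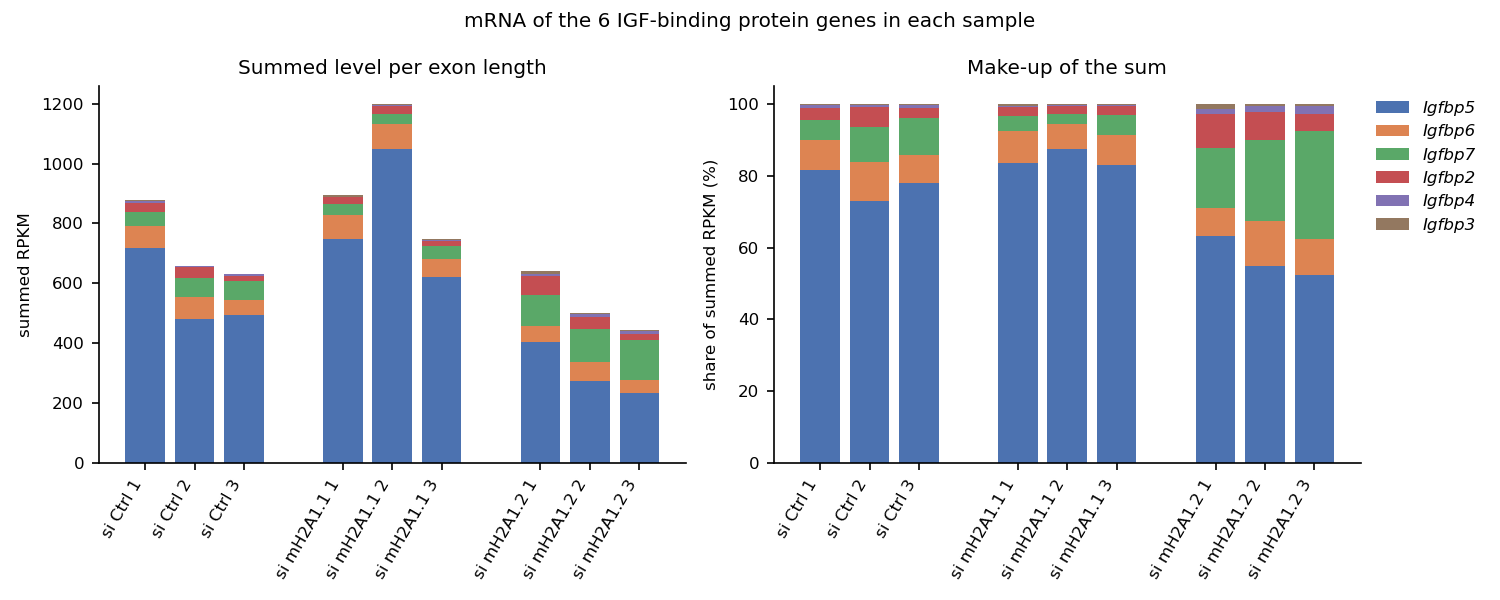
Summed RPKM of the 6 binding protein genes in each sample (left, linear axis from 0) and the share of each gene in that sum in percent (right), with a bar per sample. Igfbp5 is the largest part of each bar, and the share of Igfbp7 is 16.6% or more in the si mH2A1.2 samples and 10.2% or less in the si Ctrl samples.

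Pairs of these genes correlated strongly across the 9 samples, positively or negatively. Genes called between the same groups correlate in part through that choice. Log2 CPM of Igf1 correlated with that of Igf1r (Pearson r = 0.971), Igfbp7 (r = 0.939) and Igfbp4 (r = 0.917). Igfbp5 correlated negatively with Igfbp7 (r = -0.954), Igf1 (r = -0.863) and Irs2 (r = -0.903), which edgeR did not call. The 9 points come from 3 conditions and share their libraries, so these values describe the order of the groups as much as that of the samples. Among 14380 tested genes of at least 1 CPM on average, the pattern of Igf1 was most like that of Adamtsl3 (r = 0.997), Slc1a3 (r = 0.995) and Itga11 (r = 0.993). The genes most like Igf1r were Ermard (r = 0.993), Camk1g (r = 0.992) and Adcy6 (r = 0.992). For Igfbp4 they were Ube4a, Eda2r and Xpc (r = 0.983 to 0.990), for Igfbp5 they were Dgat2, Inpp5j and Popdc3 (r = 0.977 to 0.985), and for Igfbp7 they were Tnk2, Kif26b and Pcdh18 (r = 0.986 to 0.989).

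The summed levels of marker genes of other cell states differed between the groups, and how many of their genes were called depended on the contrast. A fibroblast matrix list of 6 genes (Col1a1, Col3a1, Pdgfra, Dcn, Lum and Postn) summed to 10317 to 13469.6 CPM in si Ctrl, 3709 to 6657 CPM in si mH2A1.1 and 17267 to 23916 CPM in si mH2A1.2, with the groups in the order of Igf1, Igfbp4 and Igfbp7. Most of this sum was Col1a1 and Col3a1, and the means of Lum, Dcn and Pdgfra were not in that order, with Lum at 11.2 CPM in si mH2A1.2 and 16.0 CPM in si Ctrl. Against si Ctrl, edgeR called 0 of the 6 in si mH2A1.2, where 4 had an unadjusted p below 0.05 and DESeq2 called 1, Col1a1. Col1a1, Lum and Postn were called lower in si mH2A1.1 against si Ctrl, while Pdgfra and Dcn, which mark fibroblasts, had log2 fold changes of 0.11 (adjusted p = 0.752) and 0.06 (adjusted p = 0.886). All 8 interferon response genes tested were called higher in si mH2A1.1, and they summed to 233, 141 and 489.9 CPM in its replicates 1 to 3, against 35.1 to 42.5 CPM in si Ctrl and 33.4 to 52.3 CPM in si mH2A1.2. For the interferon genes in si mH2A1.2 against si Ctrl, edgeR and DESeq2 called 0 of 8, and 1 had an unadjusted p below 0.05. Cycling markers (5 genes) summed to 246 to 407 CPM in si Ctrl, 359 to 747 CPM in si mH2A1.1 and 199 to 296 CPM in si mH2A1.2. Undifferentiated myoblast markers (Pax7, Myf5 and Myod1) summed to 109 to 143, 132 to 161 and 81.7 to 111 CPM in the same order. Of these cycling and myoblast markers edgeR called 0 of 5 and 0 of 3 against si Ctrl in either knockdown. At an unadjusted p below 0.05 there were 4 and 1 in si mH2A1.1 and 0 and 2 in si mH2A1.2, and DESeq2 called only Myf5, in si mH2A1.2. Between the knockdowns, where 6.38% of all tested genes were called, edgeR called Cdk1, Pax7 and Myf5, all higher in si mH2A1.1. All 5 cycling genes had an adjusted p below 0.05 from edgeR there (22.5% of all tested genes). DESeq2 called 5 of 5, but its share of calls over all genes in this contrast was not computed. In that contrast edgeR also called Col1a1, Col3a1, Lum and Postn lower, and the myotube genes Ckm and Des and 8 of 8 interferon genes higher. Of the 9 myotube genes, 4 had a log2 fold change above 0 there (median -0.10). Mymx (-0.74, adjusted p = 0.0172) and Myog (-0.46, adjusted p = 0.0435) were lower. Against si Ctrl edgeR called 0 of 9 in either knockdown. At an adjusted p below 0.05, 2 were lower and 0 higher in each (11.1% and 2.35% of all tested genes). DESeq2 called Mymx in si mH2A1.1 and Tnnt3 in si mH2A1.2. Of the leukocyte and endothelial list, Cd68 was called higher in si mH2A1.1, and Ptprc and Adgre1 were near 0, at means of at most 0.16 CPM in any group. The part of these cell states in the results for the IGF genes was not tested.

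The other genes of the pathway were taken from 7 lists of ligands, receptors, partners and signalling proteins, with 70 of the 76 listed genes tested. Between the knockdowns 6 of 70 were called, 2 higher and 4 lower in si mH2A1.1. Against si Ctrl edgeR called 0 of 70 in either knockdown. At an unadjusted p below 0.05 there were 25 of 70 in si mH2A1.1 and 17 in si mH2A1.2, and DESeq2 called 4 (Foxo1, Grb10, Htra1 and Pappa2) and 3 (Grb10, Pappa and Pik3cd). With the replicate block, Grb10, Pappa2 and Foxo1 were called in si mH2A1.1 against si Ctrl, and Grb10 and Stc1 in si mH2A1.2 against si Ctrl. The shares over all tested genes given above for the 10 genes apply here too. The median log2 fold change of the 70 genes between the knockdowns was 0.01, and it was -0.09 and -0.03 in si mH2A1.1 and si mH2A1.2 against si Ctrl. Of the 7 lists, that of FoxO factors and targets (11 genes) had the median farthest from 0 in both contrasts with si mH2A1.1. It was -0.42 against si Ctrl, with 1 gene above 0, and -0.35 between the knockdowns, with 2 above 0. In si mH2A1.2 against si Ctrl it was -0.07.

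Of the binding protein partners, the genes of 3 secreted proteases were lower in si mH2A1.1 than in si mH2A1.2. Pappa, whose product cuts IGFBP4 and IGFBP5, was at 2.06, 3.49 and 3.58 CPM in si Ctrl, 1.14, 2.10 and 3.11 CPM in si mH2A1.1, and 10.4, 9.05 and 10.4 CPM in si mH2A1.2. All si mH2A1.2 samples stood above the other 6. Between the knockdowns the log2 fold change of Pappa was -2.23 (SE 0.33, adjusted p = 0.00167 from edgeR), and against si Ctrl it was 1.71 in si mH2A1.2 (adjusted p = 0.0280) and -0.52 in si mH2A1.1 (adjusted p = 0.315). Pappa2, its paralog, which cuts IGFBP5, was called between the knockdowns (-1.40, adjusted p = 0.00256), and in si mH2A1.1 against si Ctrl its log2 fold change was -1.02 (adjusted p = 0.0211). Htra1, a serine protease with IGFBP5 among its substrates, was at 92.4 ± 38.9 CPM (SD, n = 3) in si mH2A1.1 and 268 ± 39.8 CPM in si mH2A1.2, and was called between them (-1.53, adjusted p = 0.00509). By their group means these proteases were ordered as Igfbp4 and opposite to Igfbp5. Stc1 and Stc2 encode stanniocalcins, which inhibit these pappalysins. Stc1 was at 40.7, 9.35 and 2.09 CPM in si Ctrl, 62.7, 26.6 and 14.1 CPM in si mH2A1.1, and 2.42, 0.731 and 0.295 CPM in si mH2A1.2. The knockdowns were separate from each other, and si Ctrl overlapped both. In each group Stc1 fell from replicate 1 to replicate 3, and within each replicate number si Ctrl lay between the knockdowns. Between the knockdowns the log2 fold change of Stc1 was 4.91 (SE 1.1, adjusted p = 0.0119), over edgeR's p cutoff, and DESeq2 called it. In si mH2A1.2 against si Ctrl it was -3.92 (adjusted p = 0.0960), while the replicate block gave -3.66 and called it (adjusted p = 0.00541). Stc2 had 0.25 between the knockdowns (adjusted p = 0.693). Both were named after their values were seen. Igfbp1, Igfals and Igfbpl1 were at 0 to 7 counts in any sample and were not tested.

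Grb10, an adaptor that inhibits signalling by IGF1R and the insulin receptor, was the only called gene of the 11 receptor adaptors and inhibitors tested. It was at 6.05, 7.67 and 13.4 CPM in si Ctrl, 18.3, 23.6 and 29.6 CPM in si mH2A1.1, and 3.52, 4.07 and 4.94 CPM in si mH2A1.2. The 3 groups were separate, in the reverse order of Igf1. Between the knockdowns the log2 fold change of Grb10 was 2.51 (SE 0.30, adjusted p = 0.000562 from edgeR). Against si Ctrl it was 1.40 in si mH2A1.1 (adjusted p = 0.0155) and -1.11 in si mH2A1.2 (adjusted p = 0.0825). The replicate block called both, at 1.44 (adjusted p = 0.00102) and -1.06 (adjusted p = 0.00920). The adaptor gene Sh2b1 had the lowest p of this list in si mH2A1.2 against si Ctrl (-0.34, adjusted p = 0.0643).

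Of the 4 other ligand and receptor genes tested, 0 were called in any contrast by edgeR or DESeq2, and 1, 0 and 2 had an unadjusted p below 0.05 for si mH2A1.1 and then si mH2A1.2, each against si Ctrl, and between the knockdowns. Igf2, the ligand that myoblasts make during differentiation, was at 168, 317 and 466 CPM in si Ctrl, 381, 466 and 512 CPM in si mH2A1.1, and 112, 195 and 360.2 CPM in si mH2A1.2. Its spread within groups was wide, and in each group replicate 1 was the lowest and replicate 3 the highest. The log2 fold change of Igf2 was 0.52 in si mH2A1.1 (adjusted p = 0.438), -0.51 in si mH2A1.2 (adjusted p = 0.612) and 1.03 between the knockdowns (SE 0.42, adjusted p = 0.102). The insulin receptor gene Insr had log2 fold changes of -0.29 (adjusted p = 0.176) and -0.18 (adjusted p = 0.564) against si Ctrl. Igf2r, whose product takes IGF2 into the cell for degradation, differed between the knockdowns by -0.50 (adjusted p = 0.0231). The lowest p of this list against si Ctrl belonged to Ins2, with 0.96 (adjusted p = 0.0893) for si mH2A1.1 and 0.75 (adjusted p = 0.318) for si mH2A1.2.

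Of 47 genes tested downstream of the receptor, 2 were called between the knockdowns (4.26%), near the 6.38% of all tested genes. Foxo1, a transcription factor that AKT keeps out of the nucleus, was at 33.6, 47.7 and 52.3 CPM in si Ctrl, 22.1, 26.3 and 26.2 CPM in si mH2A1.1, and 43.0, 54.7 and 68.7 CPM in si mH2A1.2. The si mH2A1.1 samples were below all others. Foxo1 was called between the knockdowns (-1.16, SE 0.19, adjusted p = 0.00316 from edgeR), and against si Ctrl its log2 fold change was -0.84 in si mH2A1.1 (adjusted p = 0.0247). The ubiquitin ligase genes Fbxo32 and Trim63, known targets of FoxO factors in muscle atrophy, had log2 fold changes in si mH2A1.1 of -0.42 (adjusted p = 0.286) and -0.50 (adjusted p = 0.164), and in si mH2A1.2 of -0.15 (adjusted p = 0.837) and -0.56 (adjusted p = 0.249). Of 13 genes of PI3K and AKT, the catalytic subunit gene Pik3cd was called between the knockdowns (1.2, adjusted p = 0.00696), at 3.52 CPM on average in si mH2A1.1 and 1.54 CPM in si mH2A1.2. The regulatory subunit gene Pik3r1 had a lower p but missed the fold change cutoff (-0.64, adjusted p = 0.00508), and Pik3r3 had the lowest p of the list in si mH2A1.1 against si Ctrl (0.71, adjusted p = 0.0306). The kinase genes Akt1 (0.37, adjusted p = 0.0316) and Akt2 (0.24, adjusted p = 0.259) were not called between the knockdowns.

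Of 14 genes of mTORC1 and GSK3 and 9 of RAS and MAPK, 0 were called in any contrast by edgeR or DESeq2. At an unadjusted p below 0.05, there were 4, 1 and 4 of the first list in the same order of contrasts, and 4, 0 and 8 of the second, where the shares over all tested genes were 29.6%, 15.9% and 36.2%. The lowest p of the first list between the knockdowns was that of Rictor (-0.67, adjusted p = 0.0297), and against si Ctrl those of Akt1s1 in si mH2A1.1 (0.42, adjusted p = 0.0687) and Eif4ebp1 in si mH2A1.2 (0.57, adjusted p = 0.265). Of the second, Braf had the lowest p in si mH2A1.1 against si Ctrl (-0.45, adjusted p = 0.0386). Sesn3 had the lowest p of the FoxO list in si mH2A1.2 against si Ctrl (0.53, adjusted p = 0.0782).

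**Figure D4:**
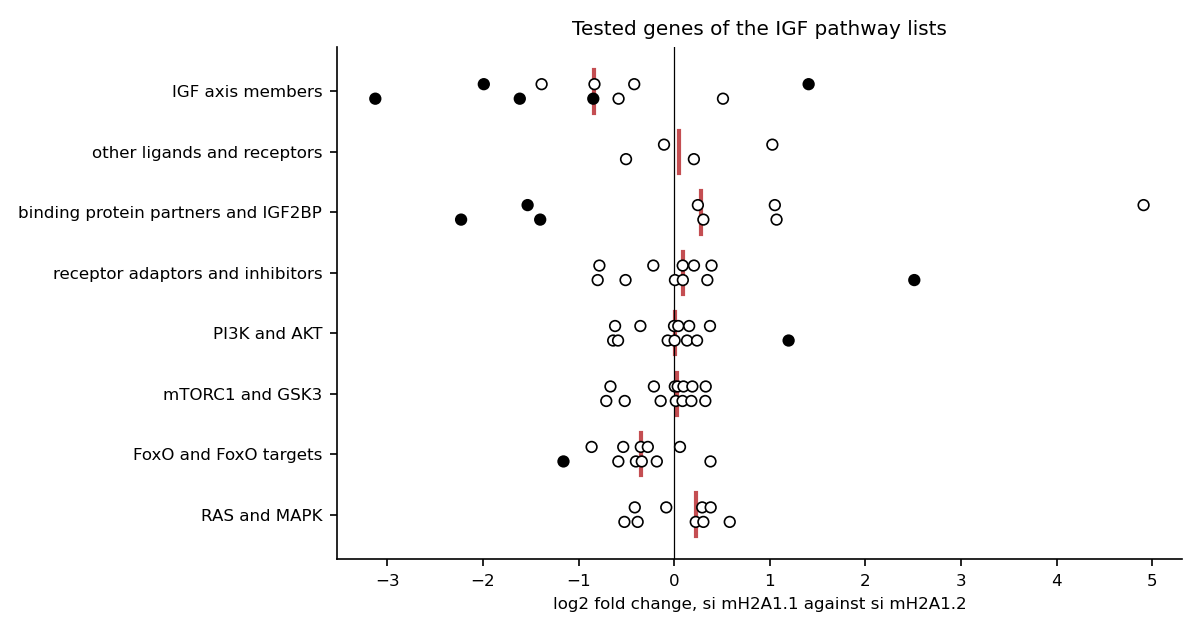
Log2 fold change between the knockdowns, si mH2A1.1 against si mH2A1.2, of each tested gene of the 10 IGF axis genes and the 7 other lists, with a point per gene, filled where called, and a red line at each list's median. The 10 genes have the median farthest from 0 (-0.84), and the called genes of the other lists are Pappa, Pappa2, Htra1 and Foxo1 below 0 and Grb10 and Pik3cd above 0.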

How the data were processed

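RNA of 9 C2C12 samples at day 4 was sequenced as single reads of 50 bp. The authors estimated reads per gene with Salmon on mm10 (GRCm38), and the deposited table holds these expected counts as whole numbers without normalization. A second table, the same counts divided by a factor for each sample, was not used, and 0 columns were left unassigned. The annotation release and strand setting are not given in the sources used here. Gene names, positions and exon lengths came from GENCODE M21 and promoters from RefSeq.

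Counts were tested in R 4.3.3 with edgeR 4.0.16 (quasi-likelihood, legacy form, TMM, filterByExpr, Benjamini-Hochberg over 19545 genes) in 1 model of the 9 samples with 3 contrasts, checked on simulated data first. Alternatives were DESeq2 1.42.0, its size factors in edgeR, other filters and cutoffs, the replicate number as a block, the 2 conditions alone, and leaving out each sample. CPM uses TMM-scaled library sizes, and log2 CPM a prior count of 2. Names shown are the 10 genes, pathway genes called or with the lowest p of their list in a contrast, 10 pathway genes named in any case, and the 3 genes most like each called one. The genes and lists were chosen with earlier results of these data known. The replicate block was fitted to all 9 samples and so pairs all 3 conditions by replicate number. Between si mH2A1.2 and si Ctrl, deviations from group means correlated at r = 0.196 to 0.331 in the 3 same-number pairs. For si mH2A1.1 the same-number r was 0.0841 to 0.0976 with si Ctrl and 0.0917 to 0.116 with si mH2A1.2. The library names in the labels also run in sequence within a number. A gene that the naming rule covers is not reported here.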

Additional observations from a re-analysis of the deposited data

How the results depend on the processing

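Of the log2 fold changes of the 10 genes recomputed under other settings, 421 kept their direction and their side of the cutoffs, 13 passed the cutoffs only under the alternative, 15 no longer passed them and 1 changed sign, that of Igfbp3 between the knockdowns (-1.07 to 0.37 with single samples left out, positive without si mH2A1.2 replicate 1). With si mH2A1.1 against si Ctrl, 1 gene was called, and 2 were at an adjusted p below 0.05 with the same fold change, in DESeq2 and without a filter on low counts. In the samples of the 2 conditions alone it was 0 (Igf1 adjusted p = 0.0126), and leaving out a sample gave 0 to 2. With si mH2A1.2 against si Ctrl, 0 were called, and 1, Igfbp7, was at an adjusted p below 0.05, without a filter, with at least 10 counts in every sample and with the replicate block, and DESeq2 gave 3. Leaving out a sample gave 0 to 0 there and 3 to 6 between the knockdowns, where the 5 called genes fell to 3 (Igf1, Igfbp4 and Igfbp7) without si mH2A1.1 replicate 1, si mH2A1.2 replicate 2 or si mH2A1.2 replicate 3. The causes were not tested. In the contrasts with si mH2A1.1, not every same-number pair correlated above 0.1. Still, 9 of 9 samples correlated best with their own number, so a pairing across all 3 conditions is possible. The main fit leaves such a pairing out. Same-number r was 0.0841 to 0.331, with a mean of 0.155, and the mean for other numbers was -0.0773. Deviations from a group mean sum to 0, so a positive same-number mean by itself pushes that for other numbers below 0. Calls given without mention of the block come from the unpaired fit in all 3 contrasts. In si mH2A1.1 against si Ctrl the block lowered the SE of Igf1 from 0.296 to 0.189 and that of Igf1r from 0.147 to 0.070. It also lowered that of Igfbp2, Igfbp3, Igfbp5, Igfbp6, Igfbp7 and Irs2. The SE of Igfbp4 rose from 0.239 to 0.261, and that of Irs1 was nearly unchanged (0.105 and 0.106). With the replicate number as a block, 1, 1 and 6 of the 10 genes were called in the 3 contrasts, and all called genes rose in number from 352 to 795, from 35 to 116 and from 1247 to 1742. The added gene was Igfbp7 with si mH2A1.2 against si Ctrl (adjusted p = 0.00541) and Irs2 between the knockdowns (adjusted p = 0.00376), where Igf2 was called too (1.19, adjusted p = 0.00434). Depth left Igfbp1, Igfals and Igfbpl1, at 0 to 7 counts, untested.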
